A study of Mus musculus with 2 samples.

Results

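Metalloproteinase-high cells of the wound were defined as cells taken 3 or 5 days after wounding in which Mmp9 and Mmp13 together reached at least 400 CPM (transcript counts, as unique molecular identifiers or UMIs, scaled to an equal total per cell). The rule found 151 such cells among 4897 wounded cells, and 5666 cells of wounded and unwounded skin carried a usable condition tag. The other 4746 wounded cells were the comparison. Because Mmp9 and Mmp13 chose the cells, their levels are given as a description and carry no test.

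MMP9 is a gelatinase and MMP13 a collagenase, secreted proteases that cut collagens and other matrix proteins. In skin wounds they are known from the leading edge of the new epithelium, where basal keratinocytes loosen their hold on the basement membrane, switch the integrins with which they grip matrix and crawl under the scab. Activation of plasmin through the urokinase receptor, laminin left on the wound bed, and ligands of the EGF receptor take part in the same movement, and cells at the front divide less than those behind it.

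By its title, the study is about serine deprivation, tissue injury and the choices that stem cells make. Single-cell 3′ RNA and hashtag libraries were made from 1 capture of C57B6/J mouse skin of the genotype Sox9-CreER;R26-LSL-YFP with Phgdh +/+ or Phgdh fl/fl. The Sox9 promoter drives a tamoxifen-dependent Cre in hair follicle cells, so that YFP marks their descendants, and the same Cre deletes floxed Phgdh, which encodes the first enzyme of serine synthesis. The 6 hashtags mark unwounded, 3-day and 5-day skin of each genotype, and all groups carry the Cre and the reporter. Wounded cells were sorted as alive, YFP-positive, high for integrin α6 and negative for CD140a, CD117, CD31 and CD45, while unwounded cells were in addition SCA1-negative and positive for CD34 and CD200. The labels describe the animals as pooled males and females and do not give their ages or numbers. Each condition is therefore 1 pool of cells, and p-values measure the spread of the difference over the 4 wounded pools, which are 4 different conditions.

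The deposited matrix held 317114087 gene UMIs, and the 4 wounded pools held between 24129707 and 76246124. The metalloproteinase-high cells had a median of 46128 UMIs and the other wounded cells 42336. In the fl/fl 5-day pool alone the order was opposite, with medians of 35396 and 46814. Intervals given below are 95% intervals. Those of shares cover counting error only. Those of log2 folds come from the fit described below and include the spread over the pools.

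At 3 days 59 of 1381 +/+ cells were metalloproteinase-high, a share of 4.27% (exact binomial interval 3.27 to 5.48). In fl/fl skin at 3 days they were 26 of 517 cells, or 5.03% (3.31 to 7.28). At 5 days the shares were 2.0% (1.35 to 2.84; 30 of 1501 cells) in +/+ and 2.40% (1.69 to 3.31; 36 of 1498 cells) in fl/fl skin. Both 3-day shares lay above both 5-day shares, while the intervals of the genotypes overlapped at each day. In unwounded skin 1 of 235 +/+ cells and 1 of 534 fl/fl cells passed the same threshold. They held 46132 and 55864 UMIs, at median depths of 7443.5 and 7599 UMIs for the rest. With a hashtag share of at least 90%, 0 of 78 +/+ and 0 of 201 fl/fl unwounded cells passed. The shares were not tested between days or genotypes.

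**Figure D1:**
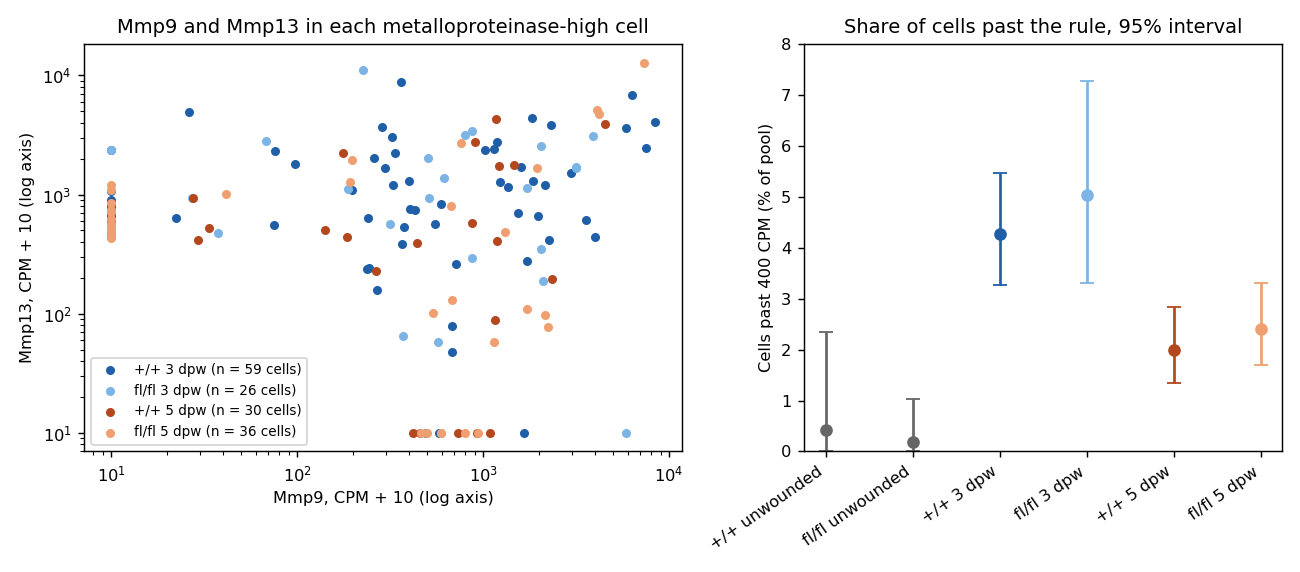
Left, Mmp9 against Mmp13 in each of the 151 metalloproteinase-high cells (CPM + 10, both axes log), coloured by pool. Right, the share of each pool's cells past 400 CPM with its 95% exact binomial interval, between 0.187% and 5.03%; the plot of cells shows groups on the axes, where only 1 of the genes had UMIs.

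The 151 cells held 89.7% of the Mmp9 UMIs and 87.0% of the Mmp13 UMIs of all wounded cells. Of the remaining wounded cells, 732 had at least 1 UMI of either gene. Barcodes with too few UMIs to be cells carried Mmp9 at 25.2 CPM and Mmp13 at 39.3 CPM. Among the metalloproteinase-high cells the sum of both genes ran from 406 to 20154 CPM with a median of 1193 CPM, or 4 to 1107 UMIs with a median of 61. The cells just inside the threshold stood at 406, 409 and 414 CPM and those just outside at 394, 386 and 371 CPM. Both genes had UMIs in 102 cells, Mmp13 alone in 34 and Mmp9 alone in 15. Over the 151 cells the Spearman coefficient between the genes was 0.10, across cells that share libraries and a threshold on their sum. Mmp9 lies on chromosome 2 (GRCm38.p6, 164940326 to 164955850) and Mmp13 on chromosome 9 (7272514 to 7283333), so that they are not neighbours in the genome.

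Keratinocyte markers were found throughout the metalloproteinase-high cells. All 151 had UMIs of Krt14, the keratin of basal cells, and of Krt6a, a keratin of wounded epidermis, even after each cell was thinned to 5000 UMIs. So did 99.98% and 94.3% of the other wounded cells, so that detection of these keratins does not set the classes apart. The 10 keratinocyte markers summed to between 54216 and 64705 CPM per pool, against 48915 to 54880 CPM in other wounded cells. Of 15 genes listed as wound-edge markers 13 were higher and 0 lower by the test described below, which called 14.8% of all genes higher and 12.1% lower. The list was chosen with earlier results of these data known. Neutrophils also make MMP9, and 1 metalloproteinase-high cell of the +/+ 5-day pool, with 6959 UMIs, 5 of Mmp9 and 0 of Mmp13, carried 128 UMIs of leukocyte and neutrophil markers, 359 of S100a9 and 40 of Retnlg beside 31 of Krt14. It raised the summed neutrophil markers of that pool's metalloproteinase-high cells to 33.6 CPM, against 0 to 1.05 CPM in the other 3 pools and 1.32 to 2.74 CPM in other wounded cells. No other of the 151 cells had more than 9 such UMIs, and Ly6g, Elane, Camp and Ltf were at 0. The 12 macrophage and osteoclast markers summed to 62.6 to 96.5 CPM (55.2 to 61.2 CPM in other wounded cells), with Adgre1 at 0. Of the 4 that could be tested, Mrc1 (log2 fold 3.97) and Cd14 (1.80) were higher. Fibroblast markers summed to 3.05 to 7.46 CPM (1.74 to 6.23 CPM in other wounded cells), with UMIs of 6 of 10 and with Col3a1, Dcn, Lum and Pdgfrb at 0. Of the 2 that could be tested, Pdgfra was higher (3.31) on 9 UMIs. T cell and Langerhans cell markers summed to 5.50 to 12.2 CPM (3.40 to 8.31 CPM), and of 3 tested H2-Ab1 was higher (1.72) and Cd74 lower (-2.28). Of 4 leukocyte markers tested Coro1a was higher (1.43). The part of these markers in the results was not tested. Leaving out all 10 wounded cells with at least 10 leukocyte and neutrophil marker UMIs changed the call of none of the 110 named genes.

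Female cells, called from Xist and Y-linked transcripts, were 37.3% of the metalloproteinase-high cells and 30.03% of the others in the +/+ 3-day pool, and 23.3% and 22.7% in the +/+ 5-day pool. None was seen in the fl/fl pools. No call on a named gene was lost when female cells were left out.

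The cells were placed among all wounded cells by clustering without Mmp9 and Mmp13, which gave 16 clusters. A single cluster of 400 cells, with Mmp10, Gm4610, Il24, Inhba and Hmga2 among its leading genes, held 89 of the 151 cells, and these were 22.2% of the cluster (18.3 to 26.6). A cluster of 151 cells led by the late cornified genes Lce3c, Lce3d, Crct1 and Cnfn held 24, or 15.9% (10.5 to 22.7). Another cluster of 374 cells, led by Tspear, Mob3b, Antxr1 and Igfbp2, held 20. A further 10 cells lay in a cluster with Il33, Gjb2, Krt6b and Krt16 among its leading genes, 5 in a cluster led by Thbs1, Cxcl10 and Cxcl9, and 3 elsewhere, while 9 clusters had none. Metalloproteinase-high cells were thus a minority of every cluster they fell in.

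The mix of clusters differed between the days. At 3 days 64 of 85 metalloproteinase-high cells were in the Mmp10-led cluster, 19 in the Lce3c-led cluster and 2 in the Tspear-led cluster. At 5 days the same clusters held 25, 5 and 18 of 66 cells, and the Il33- and Thbs1-led clusters, with none at 3 days, held 10 and 5. These shares were not tested. In the Tspear-led cluster Mmp13 was the higher of the pair in all 20 cells, and only 7 had both genes. In the Mmp10-led cluster 76 of 89 cells had both genes, and Mmp13 led in 53 and Mmp9 in 34.

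**Figure D2:**
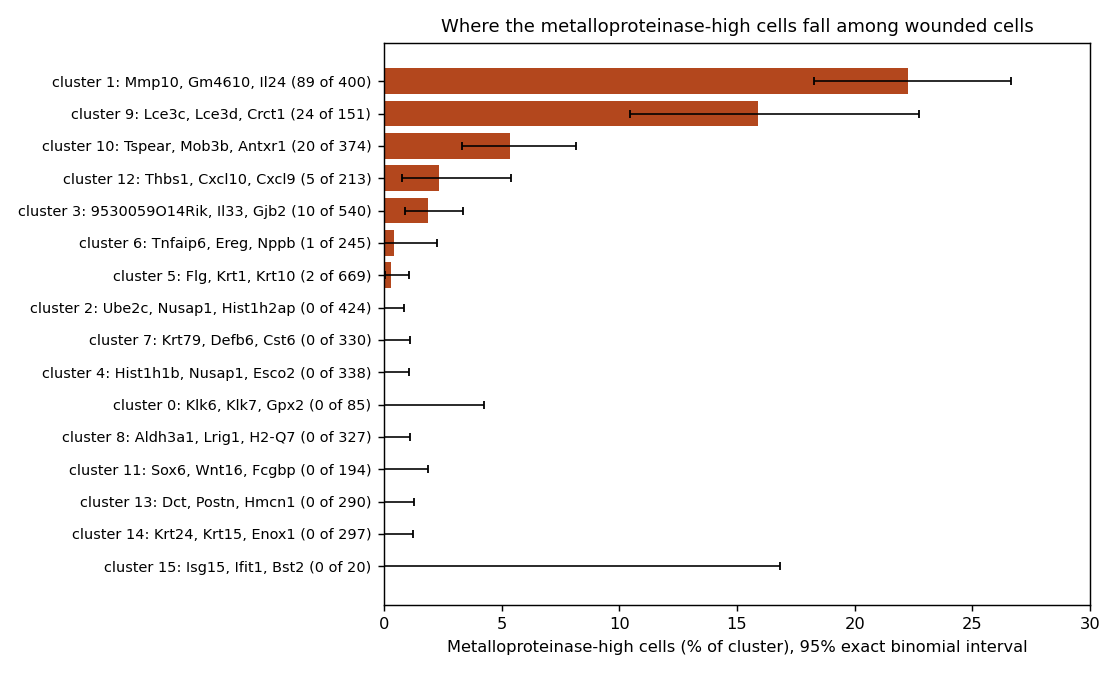
Metalloproteinase-high cells as a percentage of each of the 16 clusters of wounded cells (clustered without Mmp9 and Mmp13), with 95% exact binomial intervals; labels give the 3 leading genes and the counts. The Mmp10-led cluster stands at 22.2% and the Lce3c-led cluster at 15.9%, and 9 clusters are at 0.

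To ask what else set these cells apart, UMIs were summed per pool over metalloproteinase-high cells and over all other wounded cells, and the sums were compared with edgeR's quasi-likelihood test with the pool as a block (adjusted p under 0.05 by Benjamini-Hochberg over all genes tested). Values below are CPM of the summed cells in the order +/+ 3 days, fl/fl 3 days, +/+ 5 days and fl/fl 5 days, and differences are log2 folds with their SE. Of 12691 genes tested 1876 (14.8%) were higher and 1532 (12.1%) lower in metalloproteinase-high cells, so that 26.9% of all genes were called. Scaling to library totals instead of TMM factors moved the median difference of all genes from -0.08 to -0.30 and the share of higher genes among the calls from 55.0% to 39.5%, and none of the 110 genes named by the rule changed its direction. Without the +/+ 3-day pool, the one with most of these cells, 1015 genes were higher and 424 lower.

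Other metalloproteinases came first. Of 21 listed 8 passed the filter on low counts, and of these 6 were higher and 0 lower, with a median log2 fold of 2.69 against -0.08 over all genes. Mmp10 (stromelysin-2, ENSMUSG00000047562), which activates other metalloproteinases, stood at 643, 1304, 575 and 295 CPM in metalloproteinase-high and 7.22, 41.9, 7.23 and 6.67 CPM in other wounded cells, a log2 fold of 6.02 ± 0.31, adjusted p = 2.02e-05. Every metalloproteinase-high pool lay above every other pool. It had UMIs in 63.6% of the metalloproteinase-high cells and in 5.39% of other wounded cells, shares that were not thinned and stand at the median depths of 46128 and 42336 UMIs. Mmp3 (stromelysin-1), of the same kind, stood at 268, 324, 270.5 and 115 CPM and 13.2, 19.7, 10.5 and 12.3 CPM (4.31 ± 0.29, adjusted p = 6.06e-05). Mmp1b, a relative of interstitial collagenase, stood at 98.99, 128, 51.3 and 42.1 CPM and 6.45, 7.31, 5.21 and 6.29 CPM (3.78 ± 0.31, adjusted p = 0.00015). Mmp12, the macrophage elastase, differed by 3.39 ± 0.51, adjusted p = 0.00237, but 1 cell held 45.7% of its UMIs. Its call was lost after thinning (adjusted p = 0.0788) and among cells with a hashtag share of at least 90% (0.119). Membrane-bound Mmp14, known to activate progelatinases at the cell surface, rose by 1.99 and Mmp28 by 1.803. Mmp15 (0.14) and Mmp2 (-1.74, adjusted p = 0.11) did not pass the test. Timp1, an inhibitor of these enzymes, was at 97.9, 155, 37.2 and 53.6 CPM against 13.4, 7.57, 6.16 and 6.49 CPM (3.44 ± 0.32, adjusted p = 0.00026), with no overlap, whereas Timp2 (0.29) and Timp3 (-0.07) did not pass.

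Mmp13, Mmp12, Mmp1b, Mmp3 and Mmp10 lie in one stretch of chromosome 9, and the promoters of 4 of them are shown because these genes were high in the same cells and hold a common motif. The stretches are the 120 bases before each gene's start in RefSeq (GRCm38.p6), 5′ to 3′ on the gene's strand, and capitals mark TGANTCA, a site of the kind bound by AP-1 factors. They cover chr9:7272394-7272513 (+) for Mmp13, chr9:7445702-7445821 (+) for Mmp3, chr9:7502222-7502341 (+) for Mmp10 and chr9:7388027-7388146 (-) for Mmp1b.
Mmp13: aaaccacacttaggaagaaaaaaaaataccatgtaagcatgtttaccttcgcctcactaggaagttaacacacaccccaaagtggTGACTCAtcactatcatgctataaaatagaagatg
Mmp3: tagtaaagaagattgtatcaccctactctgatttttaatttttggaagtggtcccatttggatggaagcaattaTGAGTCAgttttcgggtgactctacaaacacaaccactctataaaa
Mmp10: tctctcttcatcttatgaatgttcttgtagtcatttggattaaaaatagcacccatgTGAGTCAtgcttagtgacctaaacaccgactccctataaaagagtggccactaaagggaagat
Mmp1b: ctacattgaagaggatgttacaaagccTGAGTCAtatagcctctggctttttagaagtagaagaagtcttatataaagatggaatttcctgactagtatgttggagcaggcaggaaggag
The first base of the motif lies 35, 46, 63 and 93 bases before the start in that order. The motif reads the same on both strands, and within 250 bases before a start it is found in 6.75% of 32851 RefSeq promoters. Counted by gene, with a match at any start, it is found in 2113 of 27025 genes and in 8 of the 10 metalloproteinase genes of this stretch of chromosome 9. Mmp12 and Mmp7 have 2 starts each and hold it at 1, and Mmp8 and Mmp27 lack it. Of the 6 highest genes outside the stretch that have an entry, 1, Psg18, holds it. Mmp7 and Mmp20, among those 8, were too low to be tested. Mmp1a also holds the motif and is not among the listed metalloproteinases that passed the filter on low counts. Among the AP-1 genes themselves, Fosl1 stood at 131, 154, 148 and 117 CPM against 88.5, 78.9, 101 and 112 CPM (0.76 ± 0.21, adjusted p = 0.0303) and Maff differed by 0.75 ± 0.20, adjusted p = 0.0238. The other 9 of 11, Jun, Fos, Junb and Atf3 among them, did not pass the test. Both calls were lost without the +/+ 3-day pool, the +/+ 5-day pool or the fl/fl 3-day pool (adjusted p between 0.0506 and 0.14), and Maff also without TMM scaling and at a threshold of 800 CPM (0.27). Maff lost its call too with a hashtag share of at least 90% (0.0664), after thinning (0.0836) and without the 5% of cells with the most UMIs (0.104). Within the Mmp10-led cluster it did not pass either (0.283).

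Genes of plasmin activation rose with them, 6 of 8 being higher and 0 lower (median 1.77). Plau, the urokinase protease, was at 129, 125, 73.9 and 61.8 CPM and 14.7, 16.4, 16.8 and 18.4 CPM (2.73 ± 0.31, adjusted p = 0.000635), and its receptor Plaur at 231, 252, 205 and 140.5 CPM and 31.4, 35.97, 38.5 and 51.8 CPM (2.62 ± 0.31, adjusted p = 0.00072). Serpinb2, an inhibitor of urokinase, stood at 3011, 2675, 782 and 472 CPM and 501, 446, 313 and 330.5 CPM (1.99 ± 0.42, adjusted p = 0.00944), the fl/fl 5-day value lying below that of other cells in the +/+ 3-day pool. Anxa2 and S100a10, whose products form a plasminogen-binding pair, rose by 1.23 and 1.55. Of 9 ADAM and ADAMTS proteases only Adam8 (2.21 ± 0.34, adjusted p = 0.00278) and Adam12 (3.66 ± 0.37, adjusted p = 0.000379) were higher and 0 were lower.

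**Figure D3:**
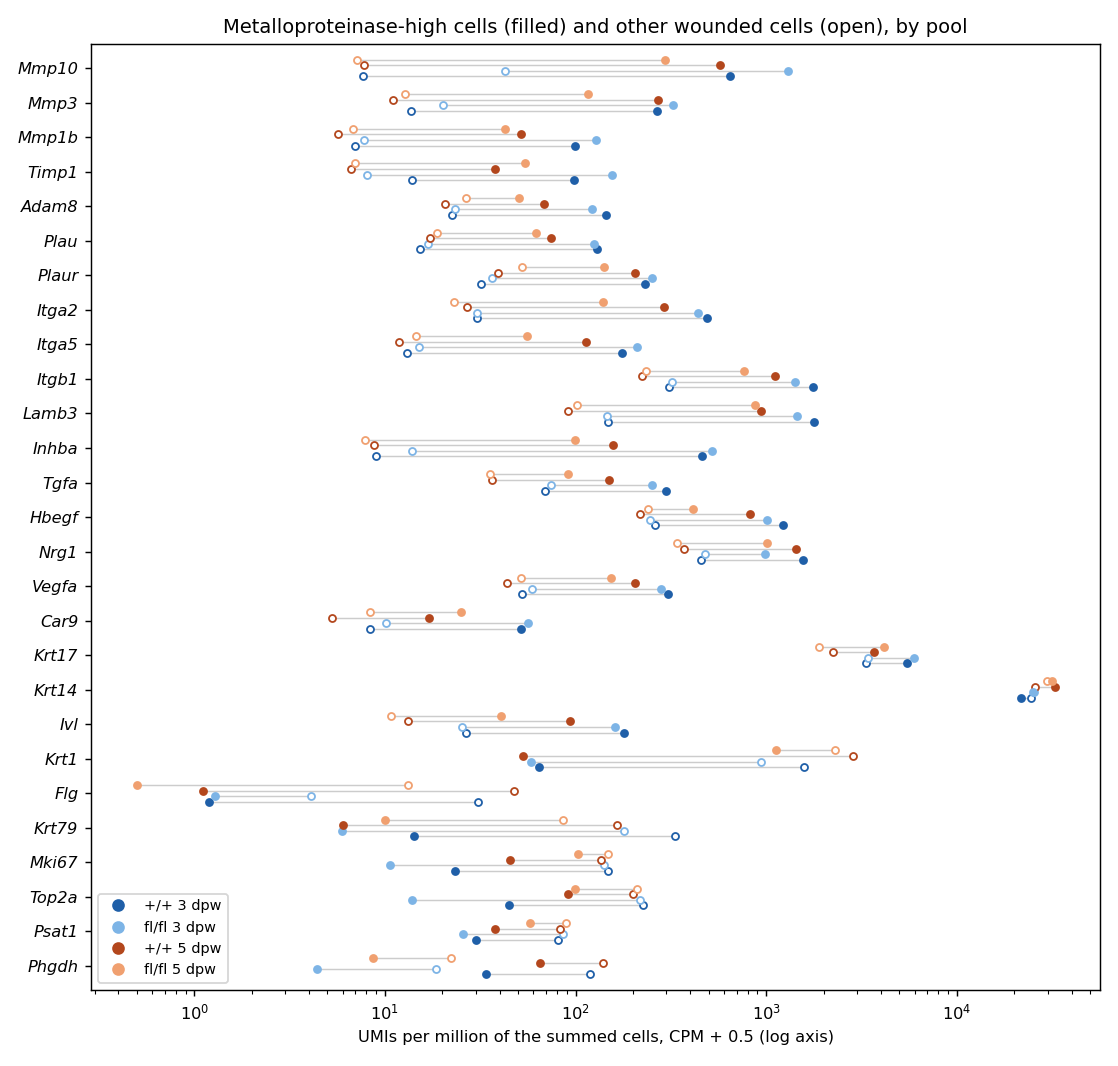
Levels of 27 genes in metalloproteinase-high cells (filled) and other wounded cells (open) of each of the 4 wounded pools, as CPM + 0.5 on a log axis, joined by a line per pool. For Mmp10 all filled points, from 295 to 1304 CPM, lie above all open points, from 6.67 to 41.9 CPM; for Krt14 they overlap; for Mki67 they lie below.

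Integrins, the receptors for matrix, were higher for 8 of 11 genes and lower for 1 (median 1.63). Itga2, the collagen receptor subunit, stood at 488, 441, 291 and 139 CPM and 29.9, 29.9, 26.6 and 22.6 CPM (3.73 ± 0.31, adjusted p = 0.00015). Itga5, the fibronectin receptor subunit, stood at 174, 209, 114 and 54.97 CPM and 12.6, 14.6, 11.3 and 14.03 CPM (3.500 ± 0.37, adjusted p = 0.000482). Both were higher in every pool without overlap, and both were lowest in the fl/fl 5-day pool. Their partner Itgb1 was at 1760.5, 1410.2, 1109 and 762 CPM and 307, 319, 223 and 233 CPM (2.395 ± 0.21, adjusted p = 0.000205), Itgav rose by 1.63 and Itgb8 fell by 1.77. The sort took cells high for integrin α6 in both classes, and Itga6 still differed by 1.75 ± 0.16, adjusted p = 0.000244. Of 24 genes of focal adhesions and actin 21 were higher and 0 lower (median 1.2), among them the integrin activators Fermt1 (2.71 ± 0.24, adjusted p = 0.000203) and Fermt2 (1.997 ± 0.20, adjusted p = 0.000406; adjusted p = 0.0525 after thinning), the focal adhesion protein Zyx (2.01 ± 0.24, adjusted p = 0.000809), the small GTPase Rhoc (2.36 ± 0.26, adjusted p = 0.000534) and the actin bundler Fscn1 (1.44).

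Genes of laminin chains of the epidermal basement membrane were higher without overlap. Lama3 stood at 2584, 2100.4, 1289.5 and 1268 CPM and 199, 184, 156 and 165 CPM (3.52 ± 0.24, adjusted p = 6.9e-05), and Lamb3 at 1774, 1452, 940.3 and 873 CPM and 148, 146, 90.4 and 101 CPM (3.57 ± 0.19, adjusted p = 2.52e-05). Over the matrix list 11 of 18 genes were higher and 1 lower (median 1.31); Ecm1 (2.46 ± 0.18, adjusted p = 8.18e-05) and the anchoring collagen Col7a1 (1.65) were higher, Tnc (0.997, adjusted p = 0.0627) did not pass, and Postn was lower (-1.45 ± 0.30, adjusted p = 0.00887), a call lost among cells with at most 5% mitochondrial UMIs (adjusted p = 0.21). Hemidesmosome genes, which rivet basal cells to the basement membrane, were higher for 5 of 6 (median 1.40), with Col17a1 at 1.92 ± 0.13, adjusted p = 8.18e-05 and Itgb4 at 1.94 ± 0.15, adjusted p = 0.000117; Dst (-0.12) did not pass.

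Cell-cell junction genes gave a mixed picture. Gap and tight junction genes were higher for 9 of 12 and lower for 0 (median 0.995), led by the claudin Cldn4 (365, 176, 126 and 117 against 36.2, 30.2, 23.6 and 23.1 CPM, 2.89 ± 0.25, adjusted p = 0.000158) and the connexin gene Gjb6 (2.14 ± 0.17, adjusted p = 0.000122). Of 17 desmosome and adherens junction genes 8 were higher and 2 lower (median 0.49). Dsc2 was higher (2.06 ± 0.27, adjusted p = 0.00125) and the suprabasal Dsg1a lower (-1.79 ± 0.34, adjusted p = 0.00639), while Cdh1, which encodes E-cadherin, did not pass (0.40, adjusted p = 0.15). Dsc1, the other lower gene, was at the edge of the test (-1.88 ± 0.59, adjusted p = 0.0443), and 1 cell held 49.4% of its UMIs. Its call was lost without TMM scaling, with DESeq2 and without any of the pools at 3 days or the +/+ pool at 5 days. All 6 tested of 14 genes linked to epithelial-mesenchymal change were higher; the rest were too low to test. They included Snai3 (3.96 ± 0.37, adjusted p = 0.000244), Snai2 (0.94), Hmga2 (2.07 ± 0.39, adjusted p = 0.00619) and S100a4 (1.602 ± 0.21, adjusted p = 0.00134). Vim is reported as uncertain, since a single cell held 58.5% of its 159 UMIs and DESeq2 did not call it (adjusted p = 0.11). Its edgeR call was lost without the +/+ 5-day pool (adjusted p = 0.101) or the fl/fl 3-day pool (0.0585).

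Inhba, which encodes the activin A subunit, was among the largest differences. It stood at 462, 519, 157 and 98.4 CPM in metalloproteinase-high and 8.44, 13.3, 8.24 and 7.37 CPM in other wounded cells (5.004 ± 0.43, adjusted p = 0.000158), with UMIs in 68.2% and 12.2% of cells at the same depths, again without thinning. Over the TGF-β and activin list 9 of 20 were higher and 1 lower (median 0.53); Fst (1.53), an activin antagonist, Tgfb1 (1.604 ± 0.21, adjusted p = 0.0013), Smad3 (1.69 ± 0.21, adjusted p = 0.000895) and the inhibitory Smad7 (1.62 ± 0.24, adjusted p = 0.00215) were higher, and the receptors Tgfbr1 (-0.11) and Tgfbr2 (-0.26) did not pass.

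Ligands of the EGF receptor family were higher for 5 of 12 genes of the list, and 0 were lower (median 0.77). Tgfa was at 297, 251, 150.2 and 90.9 CPM and 68.9, 74.1, 35.9 and 35.1 CPM (2.06 ± 0.20, adjusted p = 0.00034), Hbegf at 1225, 1009, 821 and 411 CPM and 261, 245, 216 and 239 CPM (1.98 ± 0.30, adjusted p = 0.00237), and Nrg1, the neuregulin ligand, at 1563, 989, 1439 and 1013 CPM and 452, 479, 372 and 341 CPM (1.81 ± 0.17, adjusted p = 0.000306). Areg (1.21) and Epgn (1.78 ± 0.43, adjusted p = 0.0166) completed the set, while Ereg (-0.49) and the receptors Egfr (-0.22), Erbb2 (-0.08) and Erbb3 (0.22) did not pass. The call on Epgn was lost without either 3-day pool (adjusted p = 0.066 and 0.064).

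Inflammatory mediators split, with 9 of 27 higher and 3 lower (median 0.67). Il1a, an alarmin, stood at 78.00, 55.6, 22.6 and 18.3 CPM and 5.94, 5.21, 5.51 and 5.84 CPM (3.01 ± 0.43, adjusted p = 0.00185), and Tnf at 18.2, 20.4, 7.94 and 6.11 CPM and 1.60, 1.01, 1.13 and 1.78 CPM (3.39 ± 0.49, adjusted p = 0.00196). Il24 (2.18) and Ptgs2 (1.89), the inducible prostaglandin enzyme, also rose. Tslp fell (2.80, 0.783, 4.27 and 0 against 27.2, 22.3, 6.56 and 10.9 CPM, -2.67 ± 0.57, adjusted p = 0.0102), a call lost without the +/+ 3-day pool (adjusted p = 0.0656), and Il6 had 0 UMIs in metalloproteinase-high cells. Csf3 was called (2.73 ± 0.59, adjusted p = 0.0112) although it stood at 1.75, 22.7, 61.1 and 25.1 CPM against 2.59, 1.66, 4.23 and 6.38 CPM and was not higher at 3 days in +/+ skin. Its call was lost without the +/+ 5-day pool (adjusted p = 0.0599) and among cells with a hashtag share of at least 90% (0.0639).

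**Figure D4:**
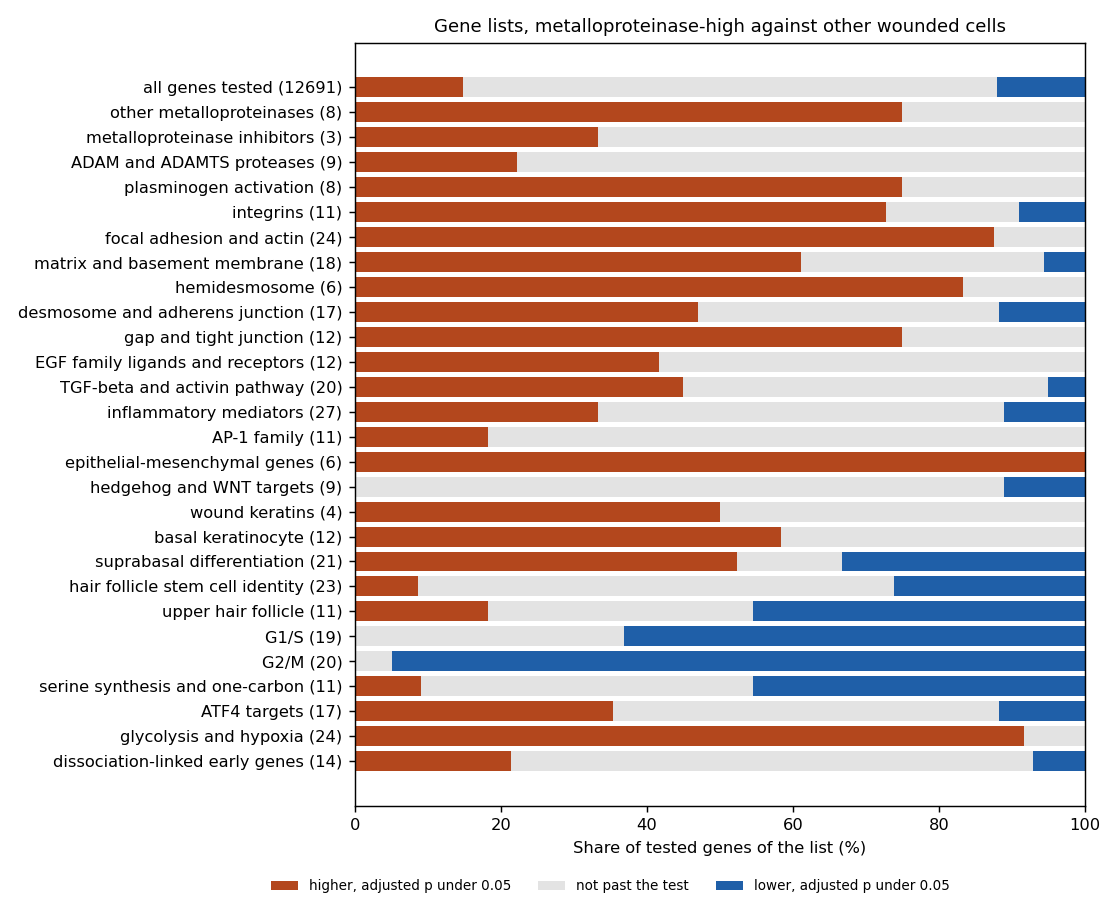
Share of each gene list that was higher, lower or not past the edgeR test in metalloproteinase-high against other wounded cells; the number of tested genes stands in brackets and the top bar shows all 12691. Higher genes are 87.5% of the focal adhesion list and 14.8% of all genes; lower genes are 95% of the G2/M list.

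Keratinocyte state set the cells apart in other ways. Krt14 did not pass the test (21618, 25169, 32565 and 31529.8 against 24439, 25344, 25833 and 29634 CPM, log2 fold 0.28, adjusted p = 0.20), nor did Krt6a (8077, 8406, 9125 and 7154 against 6663, 7089.8, 6640.1 and 7445 CPM, 0.45, adjusted p = 0.087). DESeq2 did call Krt6a (adjusted p = 0.0387). By edgeR Krt6a was called higher without the fl/fl 5-day pool (adjusted p = 0.00522), after thinning (0.00685) and within the Mmp10-led cluster (0.00387). It was also called with at most 5% mitochondrial UMIs (0.0189), a hashtag share of at least 90% (0.0416), a threshold of 800 CPM (0.0484) and no block (0.0359). After thinning, edgeR called Krt14 higher too (adjusted p = 0.038). Krt17 rose (5483, 5946, 3665 and 4169 against 3337, 3407, 2233 and 1881 CPM, 1.07 ± 0.14, adjusted p = 0.00152), as did Krt16 (0.71 ± 0.17, adjusted p = 0.0174), although the call on Krt16 was lost without any 1 of the pools at 3 days or the +/+ pool at 5 days. Krt6a and Krt6b are near-identical genes, and how reads were split between them is not given in the sources used here.

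The suprabasal list split into 11 higher and 7 lower of 21 (median 0.68). The early differentiation keratins were low, Krt1 standing at 64.01, 57.97, 52.5 and 1127 CPM against 1570.5, 936, 2842 and 2292 CPM (-3.65 ± 0.65, adjusted p = 0.00498) and Krt10 at 59.1, 57.97, 119.7 and 794 CPM against 1335, 794, 2759 and 2139.7 CPM (-3.36 ± 0.45, adjusted p = 0.00146). The fl/fl 5-day pool stood apart for both, with single cells holding 30.2% and 44.1% of the UMIs over all metalloproteinase-high cells. Flg, the late filaggrin gene, was low, with UMIs in 4 of the 151 cells (0.700, 0.783, 0.611 and 0 against 30.1, 3.59, 47.1 and 12.7 CPM, -5.27 ± 0.50, adjusted p = 0.000273). Ivl, which encodes the envelope protein involucrin, went the other way (179, 159.8, 93.4 and 40.04 against 25.98, 24.8, 12.7 and 10.3 CPM, 2.83 ± 0.23, adjusted p = 0.000128), as did Cnfn (2.27), the cross-linking enzyme gene Tgm1 (2.02) and Sprr1a (1.77).

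Genes of follicle origin were mostly lower or not called. Of 23 hair follicle stem cell genes 6 were lower and 2 higher (median -0.80), Sox9 (-1.01), Nfix (-1.21 ± 0.31, adjusted p = 0.0202) and Krt24 (-2.46 ± 0.47, adjusted p = 0.00623) being lower and Bmp6 (1.699 ± 0.30, adjusted p = 0.00476) and Fgf18 (2.03) higher. The call on Nfix was lost without either 3-day pool (adjusted p = 0.107 and 0.0643). Among cells with a hashtag share of at least 90% Krt24 (adjusted p = 0.0668) and Bmp6 (0.182) lost theirs, Bmp6 also after thinning (0.0644). Cd34 did not pass (0.82, adjusted p = 0.084), but was called higher without the fl/fl 3-day pool (adjusted p = 0.0109), among cells with at most 5% mitochondrial UMIs (0.0359), at a threshold of 800 CPM (0.0332) and without the Lce3c-led cluster (0.0447). Krt79 and Defb6, which mark the upper follicle, were at 13.6, 5.48, 5.50 and 9.50 and 4.20, 6.27, 6.72 and 3.39 CPM, against 332, 180.1, 165 and 85.4 and 247, 91.1, 83.5 and 26.5 CPM (-4.17 ± 0.25, adjusted p = 3.89e-05 and -4.104 ± 0.36, adjusted p = 0.0002). Plet1, also listed with the upper follicle, was higher (2258, 2098, 921 and 457 against 294, 282, 239.8 and 234 CPM, 2.43 ± 0.39, adjusted p = 0.00327).

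Genes of the cell cycle were lower. Of 20 G2/M genes 19 fell and 0 rose (median -1.60), and of 19 G1/S genes 12 fell and 0 rose (median -0.88). Mki67 stood at 22.7, 10.2, 44.6 and 102 CPM against 147, 141, 135 and 147 CPM (-1.77 ± 0.35, adjusted p = 0.00784), and Top2a at 44.1, 13.3, 90.4 and 99.1 CPM against 224, 216, 199 and 209.9 CPM (-1.78 ± 0.34, adjusted p = 0.0067). In both genes the 3-day pools of metalloproteinase-high cells were lowest. After thinning each cell to 5000 UMIs, 19.2% of all metalloproteinase-high cells and 43.5% of others had a UMI of Mki67 or Top2a. Without thinning the shares were 47.7% and 71.4%. By pool the thinned shares were 18.6%, 3.85%, 26.7% and 25% against 44.3%, 46.8%, 39.9% and 45.2%. The fl/fl 3-day share is 1 of 26 cells. In the +/+ 5-day pool the intervals overlapped (12.3 to 45.9 and 37.4 to 42.5). The licensing factor gene Mcm6 was lower (-1.51 ± 0.25, adjusted p = 0.00403), although not past the test after thinning (-1.02, adjusted p = 0.146), and Uhrf1 (-1.22 ± 0.39, adjusted p = 0.0444) lost its call without any single pool other than the +/+ 5-day pool.

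Glycolysis and hypoxia genes moved together, with 22 of 24 higher and 0 lower (median 0.90). Vegfa was at 306, 281, 205 and 153 CPM and 52.1, 58.6, 42.99 and 51.02 CPM (2.39 ± 0.23, adjusted p = 0.000324). Car9, a carbonic anhydrase known as a target of hypoxia, was at 51.1, 55.6, 16.5 and 24.4 CPM and 7.90, 9.58, 4.79 and 7.84 CPM (2.44 ± 0.29, adjusted p = 0.000766), and Bnip3 and Ndrg1 differed by 2.25 ± 0.25, adjusted p = 0.000538 and 2.41 ± 0.28, adjusted p = 0.000692. The lactate exporter Slc16a3 (2.21) and the glucose transporter Slc2a1 (0.88) rose as well. The enzymes of serine synthesis were lower within both genotypes. Phgdh stood at 33.6, 3.92, 64.7 and 8.14 CPM in metalloproteinase-high and 119, 18.03, 138 and 21.7 CPM in other wounded cells (-1.32 ± 0.18, adjusted p = 0.0015), and Psat1 at 29.7, 25.1, 37.2 and 57.00 CPM and 80.7, 85.3, 82.4 and 88.3 CPM (-1.01 ± 0.16, adjusted p = 0.00302); Psph differed by -0.92 ± 0.17, adjusted p = 0.00647. The fl/fl pools carry the floxed Phgdh and were low in both classes, and with no term for the pool the call was lost (adjusted p = 0.31). Of all 11 genes of serine and one-carbon metabolism 5 were lower and 1 higher (median -0.75). Among 17 ATF4 targets, genes switched on when amino acids run short, 6 were higher and 2 lower (median 0.31). Sesn2 (2.02 ± 0.30, adjusted p = 0.00237), Ddit4 (1.92 ± 0.24, adjusted p = 0.00098) and Nupr1 (0.86 ± 0.17, adjusted p = 0.00677) were higher, the cystine carrier gene Slc7a11 (-1.71) was lower, and Atf4 itself did not pass (0.31, adjusted p = 0.20). Of 14 early genes known to respond to dissociation of tissue 3 were higher and 1 lower, Ier3 (1.74 ± 0.30, adjusted p = 0.00448) and Dusp1 (0.95 ± 0.23, adjusted p = 0.0171) among the higher ones. The call on Dusp1 was lost without either 3-day pool (adjusted p = 0.0623 and 0.078).

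The 10 largest differences by the naming rule also held genes outside the lists. Psg18, a pregnancy-specific glycoprotein gene, stood at 63.7, 70.5, 10.99 and 33.3 CPM against 1.06, 0.963, 0.161 and 0.308 CPM (6.46 ± 0.22, adjusted p = 1.45e-06), with UMIs in 64 of the 151 cells. It belongs to a family of near-identical genes, and the assignment of its reads is uncertain. Pglyrp2, a peptidoglycan-binding amidase (5.902 ± 0.26, adjusted p = 8.09e-06), Antxr2, an anthrax toxin receptor that binds matrix (456, 447, 317 and 278 against 22.2, 26.6, 17.3 and 15.8 CPM, 4.41 ± 0.18, adjusted p = 4.86e-06), Star, the cholesterol transporter of steroid synthesis (4.89 ± 0.56, adjusted p = 0.000658), the calcium channel gene Cacna1e (4.58 ± 0.60, adjusted p = 0.00123), the semaphorin receptor gene Plxna4 (4.31 ± 0.26, adjusted p = 3.89e-05) and the transcription factor gene Glis3 (4.27 ± 0.24, adjusted p = 3.23e-05) were higher. The lowest were Flg, Krt79, Defb6, Krt1, Serpinb12 (-3.54 ± 0.38, adjusted p = 0.00049), Krt10, Dapl1 (-3.09 ± 0.63, adjusted p = 0.00861), Adh7 (-2.79 ± 0.42, adjusted p = 0.00243), Mt4 (-2.702 ± 0.58, adjusted p = 0.0108) and Aadac (-2.59 ± 0.28, adjusted p = 0.000534). The call on Mt4 was lost without the +/+ 3-day pool (adjusted p = 0.0554).

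Because most of the cells lay in the Mmp10-led cluster, its 89 metalloproteinase-high cells were compared with its other 311 cells by the same edgeR test. Of 9574 genes 1564 (16.3%) were higher and 1451 (15.2%) lower, or 31.5% in all. Several protease, integrin and laminin genes were higher here too, Mmp10 by 3.96, Inhba by 3.56, Itga2 by 2.03, Itga5 by 1.81 and Lamb3 by 1.73. Focal adhesion genes were higher for 20 of 24, glycolysis and hypoxia genes for 23 of 24 and wound keratins for 4 of 4, none of these lists holding a lower gene. Integrins were higher for 6 of 10 and lower for 0. Hemidesmosome genes were higher for 3 of 6 and lower for 1, and Plec, which encodes the linker plectin, did not pass (0.27, adjusted p = 0.11). G2/M genes were lower for 15 of 20 and G1/S genes for 16 of 19.

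Nrg1 and Hmga2 behaved otherwise. Within the cluster Nrg1 differed by -0.00 (interval -0.42 to 0.41), at 2181, 1285, 2250.5 and 1154 CPM in metalloproteinase-high and 1747, 1788, 2012 and 2181 CPM in the other cells, so that it was above in both +/+ pools and below in both fl/fl pools. Hmga2 differed by -0.11 (interval -0.66 to 0.44) and Fosl1 by 0.09 (interval -0.26 to 0.44). Suprabasal genes were higher for 11 of 17 and lower for 0 within the cluster. Krt1 and Krt10, low against all wounded cells, differed by 0.99 and 0.96 here and did not pass (adjusted p = 0.39 and 0.34), and Sostdc1 was higher by 1.31. The fl/fl 5-day pool, with 8 metalloproteinase-high cells in the cluster, stood apart. Krt1 was at 62.0, 55.2, 40.6 and 1293 CPM against 53.7, 131, 54.8 and 46.1 CPM. In that pool Krt10 was at 1511 against 70.2 CPM and Sostdc1 at 87.3 against 16.3 CPM. Most of the Krt1 UMIs, and most of the Krt10 UMIs, of these 8 cells lay in a single cell. Sostdc1 was lower in the fl/fl 3-day pool (5.11 against 8.71 CPM). Phgdh stayed lower (-1.16), and Psph did not pass (-0.18, adjusted p = 0.48).

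Values were also read over 6 steps of the summed Mmp9 and Mmp13 level. From 4014 cells without a UMI to 57 cells of at least 2000 CPM, the mean of the 4 pools went from 8.43 to 1464 CPM for Mmp10, from 7.01 to 529.7 CPM for Inhba, from 21.3 to 582 CPM for Itga2 and from 43.6 to 344 CPM for Vegfa. Mki67 went from 144 to 13.5 CPM. The 54 cells at 200 to 400 CPM, below the threshold, already stood at 534 CPM for Lamb3 against 88.6 CPM in cells without a UMI, and at 2059 CPM for Nrg1, the highest step for that gene. The upper steps hold as few as 6 cells in a pool, and these values are a description.

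**Figure D5:**
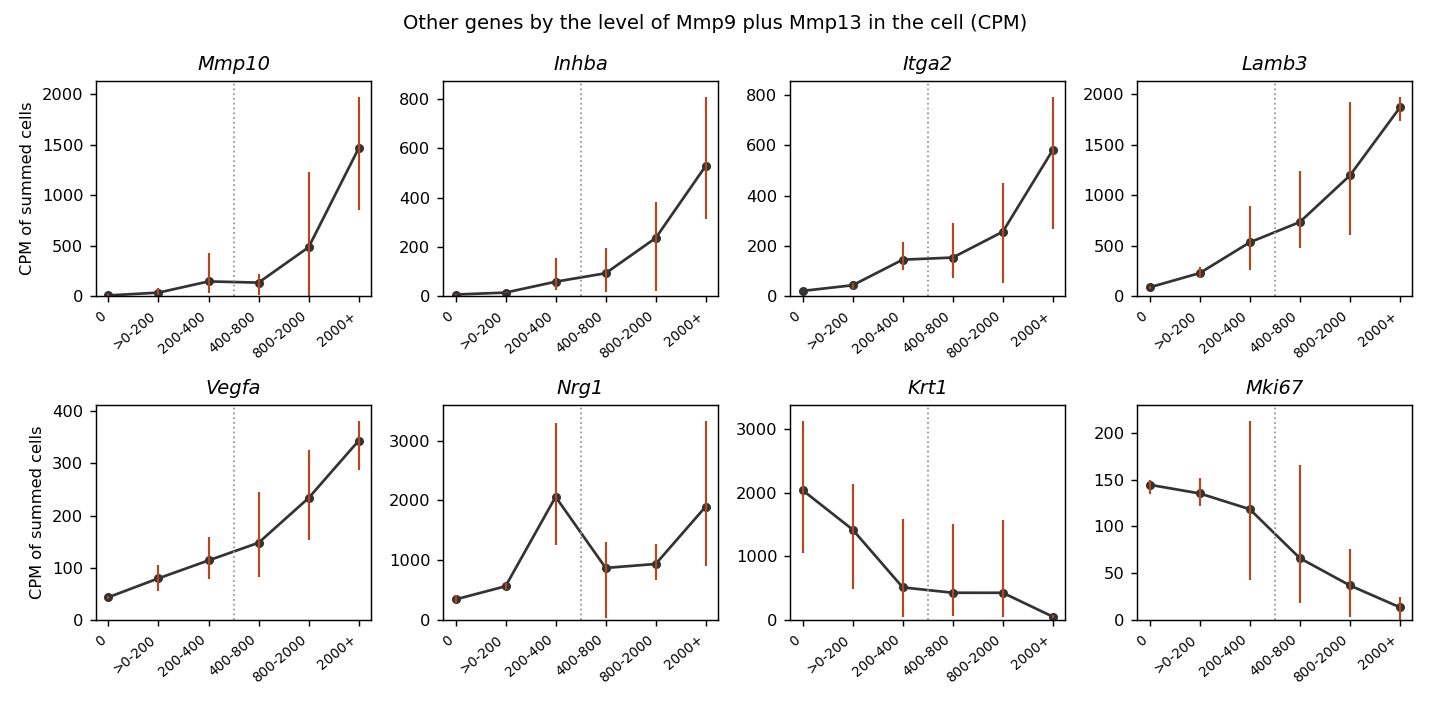
Mean over the 4 wounded pools (points) and range of the pools (vertical lines) of 8 genes in cells grouped by the sum of Mmp9 and Mmp13 (CPM), from 4014 cells at 0 to 57 cells at 2000 CPM or more; the dotted line is the threshold of 400 CPM. Mmp10, Inhba, Itga2, Lamb3 and Vegfa are highest in the last step, while Krt1 and Mki67 are lowest there.

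The cells were next set against 2 classes of wound cells without either metalloproteinase. Nrg1-high cells were the top 10% of each pool by Nrg1 among cells with 0 UMIs of both. The Mmp10-led cluster held 130 of them, the Thbs1-led cluster 95 and the Lce3c-led cluster 5, against 89, 5 and 24 of the metalloproteinase-high cells. Of 9970 genes 1901 (19.1%) were higher and 1740 (17.5%) lower in metalloproteinase-high cells, which is 36.5% called. Scaling to library totals gave 1166 higher and 2952 lower. All 4 wound keratins were higher (median 2.16), 14 of 19 suprabasal genes were higher and 0 lower (median 2.75), 24 of 24 glycolysis and hypoxia genes were higher (median 1.18), and 20 of 20 G2/M genes were lower (median -1.68). The largest differences by the naming rule were Psg18 (7.16), Pglyrp2 (6.94) and the cornified genes Crct1 (5.79), Lce3c (5.45) and Cnfn (5.42). Crct1, Lce3c and Cnfn are leading genes of the Lce3c-led cluster, and the part of that cluster in the cornified and suprabasal differences was not tested. The lowest were Cxcl10 (-2.81), Ccl2 (-2.599), Krt79 (-2.596), Hells (-2.43) and Hoxc8 (-2.35). The call on Cxcl10, a leading gene of the Thbs1-led cluster, was lost without the +/+ 5-day pool (adjusted p = 0.0544) and without the pool as a block (0.113). Of the TGF-β and activin list 3 of 20 were higher and 4 lower.

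Wound-keratin-high cells, the top 10% of each pool by the sum of Krt6a, Krt6b, Krt16 and Krt17 among cells without metalloproteinase UMIs, differed in other lists. Of these cells 289 lay in the Il33-led cluster, 65 in the Lce3c-led cluster, 69 in a cluster led by Flg, Krt1 and Krt10 and 3 in the Mmp10-led cluster. Of 9496 genes 1749 (18.4%) were higher and 1571 (16.5%) lower in metalloproteinase-high cells, or 35% in all, and scaling to library totals gave 2109 and 921. Basal genes were higher for 10 of 12 (median 1.70), matrix genes for 11 of 11 (median 3.11) and hemidesmosome genes for 6 of 6 (median 2.58), while suprabasal genes were lower for 14 of 19 (median -1.01). G2/M genes were higher for 1 of 20 and lower for 0 (median 0.07). Glycolysis and hypoxia genes were higher for only 10 of 24 and lower for 0 (median 0.36). Gap and tight junction genes were higher for 5 of 12 and lower for 2. Of 16 desmosome and adherens junction genes 3 were higher and 8 lower. Mmp10 was higher by 6.91 and Itga2 by 6.27, at 488, 441, 291 and 139 CPM against 9.78, 6.67, 1.81 and 0.989 CPM. Psg18 and Plxna4 had 0 UMIs in wound-keratin-high cells and were at least 484-fold and at least 341-fold higher, taking 3 UMIs over the whole class as the limit. The lowest were Fabp4 (-5.01), Serpinb12 (-4.81), Serpinb3a (-4.25), Krt1 (-3.86) and Tdh (-3.56); Serpinb3a belongs to a group of near-identical genes.

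Cells led by Mmp13 and cells led by Mmp9 were compared with each other within each pool, 93 and 56 cells in all. With edgeR's quasi-likelihood test 0 of 6334 genes (0.0%) passed, while 693 had an unadjusted p under 0.05. DESeq2 called 18 genes higher and 19 lower in Mmp13-led cells, so that the tools differed on whether any gene separates these cells.

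Whether the contrast with other wounded cells differed between days was tested as an interaction, chosen after the data were seen. Of 12691 genes 59 (0.465%) had a larger and 139 (1.1%) a smaller log2 fold at 5 than at 3 days by edgeR. In all, 1.56% of genes were called. Genes higher in these cells were among those with smaller folds, with 7 of 24 glycolysis and hypoxia genes and 4 of 15 wound-edge markers smaller at 5 days. The log2 fold at 5 days minus that at 3 days was -1.94 for Inhba (adjusted p = 0.0249), -1.496 for Plau (0.0336), -2.14 for Il1a (0.0269) and -1.34 for Ndrg1 (0.0269). Of 20 G2/M genes 4 had a larger value at 5 days, that is a smaller deficit, Cenpf by 2.25 (0.0387), and so did 6 of 23 hair follicle stem cell genes, Nfix by 1.57 (0.0269). The mix of clusters moved with the day, as given above, and its part in these differences was not tested. Between genotypes 0 of 12691 genes passed the same interaction test (0.0%), with 293 at an unadjusted p under 0.05 and no other tool run. With 2 pools on each side, that does not show that the contrast was alike in +/+ and fl/fl skin.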

How the data were processed

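The deposited matrix holds raw UMI counts per gene and barcode, made with Cell Ranger 7.1.0 on mm10, and Seurat 4.3.0 was also used, per the submitters' processing notes. Condition tags came from the deposited hashtag counts. Cells had at least 5000 gene UMIs, at most 10% mitochondrial UMIs, and 1 hashtag with at least 20 UMIs and 70% of hashtag UMIs. This limited, but did not exclude, cells with tags of 2 conditions, and no doublet caller was run. UMIs were summed per pool and class and fitted with edgeR 4.0.16 (R 4.3.3; TMM, filterByExpr, quasi-likelihood test, pool as block, 3 residual degrees of freedom). Mmp9 and Mmp13 were left out of counts of called genes. Clusters came from scanpy 1.11.5 (2000 variable genes, 30 components, 15 neighbours, Leiden resolution 1). The counts were 24129707 to 76246124 per wounded pool.

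Genes were named as the 10 highest and 10 lowest called genes with at least 20 CPM in the higher class and 1 direction in all 4 pools, up to 4 called genes per list with at least 10 CPM, and a short set given throughout; in the other comparisons, 5 and 5. Listed genes given with a fold and no p were picked after their values were seen. Results for some genes within the counts are not reported here. The cells and the lists were chosen with earlier results of these data known. Sources for sequences and positions were RefSeq tables (GRCm38.p6). On simulated counts the fit found 12.5% of genes changed 1.5-fold, 56.0% at 2-fold and 93.8% at 4-fold, and called 0.041% of unchanged genes. The simulation changed 50 genes at each fold among 12493 unchanged ones. It gave all genes a common dispersion and each changed gene the same fold in every pool. In the data 26.9% of genes were called, so these rates need not hold there. Alternatives were DESeq2 1.42.0, other scalings, filters and thresholds, leaving out each pool, and no block.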

Additional observations from a re-analysis of the deposited data

Results flagged for a closer look

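For 19 of the 110 named genes the difference between metalloproteinase-high and other wounded cells itself differed between 3 and 5 days. The test was edgeR's interaction test with Benjamini-Hochberg adjustment, fitted on 2 pools at each day. Over all 12691 genes it called 1.56%. The named genes were mostly chosen from calls of the main comparison on the same sums, so the shares are not comparable. The mix of clusters and the number of cells per pool also differed between the days, and their part was not tested. Among protease and adhesion genes the log2 fold at 5 days minus that at 3 days was -2.07 for Serpinb2 (adjusted p = 0.0205), -1.496 for Plau (0.0336), -1.63 for Adam8 (0.0419), -1.08 for Fermt1 (0.0398), -1.31 for Ctnna1 (0.0269) and -1.02 for Lama3 (0.0354). Among signals it was -1.94 for Inhba (0.0249), -2.09 for Epgn (0.028) and -2.14 for Il1a (0.0269). Genes of hypoxia and stress gave -1.34 for Ndrg1 (0.0269), -1.17 for Bnip3 (0.0314), -1.12 for Ddit4 (0.0398), -1.47 for Ier3 (0.028) and -1.09 for Dusp1 (0.0378). Plet1 gave -1.87 (0.0282) and Perp -0.98 (0.029). The difference was positive for Dapl1 at 5.27 (0.0339), Cenpf at 2.25 (0.0387) and Nfix at 1.57 (0.0269), each of which was lower in metalloproteinase-high cells. The calls on Cenpf (adjusted p = 0.0786) and Nfix (0.107) as lower genes were lost without the +/+ 3-day pool. Dapl1 rests on few UMIs, at no more than 12.2 CPM in the metalloproteinase-high cells of any cluster.

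For 5 of 110 named genes the log2 fold of 1 pool lay far from those of the other 3. The fl/fl 5-day pool stood apart for Krt79, at -3.04 against -4.80 to -4.51, for Dsc2, at 0.94 against 2.03 to 2.15, for Tgfb1, at 0.86 against 1.44 to 1.56, and for Ivl, at 1.86 against 2.64 to 2.78. The +/+ 5-day pool stood apart for Fermt2, at 1.40 against 1.72 to 1.77. Chance flags about 1 in 20 groups.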

How the results depend on the processing

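Over the named genes and all alternatives, 2458 values kept direction and side of the threshold, 94 lost the call, 13 gained it and 10 turned. The 10 turned within the Mmp10-led cluster alone: Krt79 (0.35), Krt1 (0.99), Krt10 (0.96), Mt4 (1.41), Dsg1a (1.15), Postn (0.30), Sostdc1 (1.31), Egr2 (0.044), Nrg1 (-0.0048) and Hmga2 (-0.11). Of these only Sostdc1 passed the edgeR test within the cluster (adjusted p = 0.0255), and the rest showed no called difference there. In the fl/fl 5-day pool, with 8 metalloproteinase-high cells there, Mt4 stood at 79.0 against 5.05 CPM, and Krt1 and Krt10 were likewise high. For Krt1 and for Krt10 most of the UMIs of these 8 cells lay in a single cell. The cause was not tested. Thinning each cell to 5000 UMIs left 862 genes higher and 437 lower than in other wounded cells. Leaving out each pool gave 1015 to 2103 higher and 424 to 1687 lower, the lowest counts without the +/+ 3-day pool (1015 and 424) and 1115 and 680 without the fl/fl 3-day pool. Without the +/+ 5-day pool they were 1335 and 912. Against Nrg1-high cells leaving out each pool gave 1161 to 2033 and 803 to 1690, and library totals 1166 and 2952. Against wound-keratin-high cells the ranges were 1254 to 1785 and 855 to 1514, with 921 lower under library totals. Between Mmp13- and Mmp9-led cells DESeq2 called 18 and 19 genes, no filter on low counts 202 and 200, and leaving out each pool 0 to 1 and 0 to 7. A threshold of 200 CPM gave shares of 5.50% (+/+ 3 days) and 3.60% (fl/fl 5 days), and 800 CPM gave 3.19% (+/+ 3 days), 0.999% (+/+ 5 days) and 1.202% (fl/fl 5 days).

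The pool served as the block, since each pool gives both classes. Without that block 2293 genes were higher and 2078 lower than in other wounded cells, 2105 and 1977 against Nrg1-high and 1696 and 1492 against wound-keratin-high cells. The calls on Krt1 (adjusted p = 0.0616), Mt4 (0.22), Dsc1 (0.0684), Znrf3 (0.0935), Uhrf1 (0.0524) and Phgdh (0.313) were then lost and that on Krt6a (0.0359) was gained. A pool held 26 to 59 metalloproteinase-high cells, and on the simulated counts most changes of 1.5-fold were not found.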
